A study of Mus musculus with 3 samples.

Results

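The transcripts of 7 chemoattractant receptors of neutrophils, Fpr1, Fpr2, Ltb4r1, C5ar1, Ptafr, Hcar2 and Ccrl2, were followed across the leukocytes of 4T1 tumors. They were taken by symbol as 7 of the 32285 genes measured, and all 7 were found. 4T1 is a mammary tumor line derived from the BALB/c strain, and live CD45+ cells, negative for the dead-cell dye 7AAD, were sorted from primary tumors and profiled by droplet single-cell RNA sequencing. In every group female BALB/c mice of 6 to 8 weeks had received 200000 luciferase-expressing 4T1-luc cells into the 4th mammary fat pad, and tumors were taken on day 14. In the vehicle group (Veh) the implanted cells were p38a wildtype and the mice received DPBS from day 4 for 10 days. The p38i group had the same cells and was given LY2228820 (ralimetinib), an inhibitor of p38 kinases, at 30 mg/kg by daily gavage over those days. In the p38KO group the implanted cells were the CRISPR-Cas9 line p38a-KO-H9, a single clone, while the sorted leukocytes were of the BALB/c host, and no treatment is named for these mice. Each group was 1 library made from the pooled tumors of 3 mice.

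Chemoattractant receptors are membrane proteins of the G protein-coupled receptor family that guide leukocytes along gradients of their ligands. Fpr1 and Fpr2 bind formylated peptides released by bacteria and by damaged mitochondria, and Fpr2 also binds host peptides and lipids. Ltb4r1 is the high-affinity receptor of leukotriene B4, C5ar1 that of the complement fragment C5a, and Ptafr that of platelet-activating factor. Hcar2 is the receptor of beta-hydroxybutyrate and niacin, and Ccrl2 is an atypical receptor that binds chemerin without the usual G protein signal. In neutrophils, signals through the receptors of formylated peptides, leukotriene B4, C5a and platelet-activating factor drive recruitment, priming and the release of granules and oxygen radicals. This is not meant of Hcar2 and Ccrl2. The chemokine receptor Cxcr2 is high on cells newly come from the blood.

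Sets of 3 values below are in the order vehicle, p38i, p38KO. Depth was counted in unique molecular identifiers (UMIs, tags that mark each captured transcript once). The analysis used 3820, 4793 and 3859 cells that had 1500 UMIs and 300 genes or more and no more than 20% of counts from mitochondria. Their median depth was 3162, 3038 and 3317 UMIs, and their median mitochondrial share was 0.671%, 0.968% and 2.10%. Between 9 and 10 kept cells of a library had a barcode that was also found in another library. Cells were gated by raw counts. Neutrophils had at least 2 UMIs of Csf3r, the receptor of the granulocyte growth factor G-CSF, with at most 1 UMI of Ly6c2 plus Fn1, of C1qa and of 6 lymphocyte genes, and were split by whether a Cxcr2 UMI was seen. Monocytes were gated by Ly6c2 plus Fn1, macrophages by the complement gene C1qa, and lymphocytes, used here as background, by T, B and NK cell genes. The gates held 3420 neutrophils with Cxcr2, 810 without, 1623 monocytes, 907 macrophages and 2116 lymphocytes, and 3596 kept cells met no gate. Levels are CPM, the counts of a gene scaled to a gate total of 1e+06 UMIs, with exact Poisson 95% intervals. They compare gates per UMI and not per cell, and the gates differed in depth. The log2 ratios carry exact conditional binomial 95% intervals. With 1 library per group no test, SD or p-value was possible, and all intervals cover counting error only, not the spread between mice or preparations. The intervals treat each UMI as independent, so the spread between cells of a library is not covered either, and they can be too narrow.

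The gates were checked against marker genes. The 10 neutrophil markers summed to between 161369 and 228226 CPM in neutrophils with Cxcr2, to between 91908 and 155398 CPM in those without, and to at most 13612 CPM in any other gate. Most of this sum was S100a8 and S100a9, at 76913 and 116622 of 204681 CPM in vehicle neutrophils with Cxcr2. The gating genes Csf3r and Cxcr2 are among these markers. Ly6c2 and Fn1 are among the monocyte markers and C1qa among the macrophage markers, so these sums rest in part on the gates themselves. B cell markers stayed at or below 1.23 CPM in both neutrophil gates, but the gate itself limits Cd79a and Ms4a1, so this says little. T cell markers, also limited in part by the gate, stayed at or below 25.8 CPM. Monocyte markers summed to 838, 812 and 831 CPM in neutrophils with Cxcr2 and to 1363, 1117 and 1034 CPM in those without. Macrophage markers summed to 314, 385 and 652 CPM with Cxcr2 and to 493, 761 and 730 CPM without. Mast cell markers were higher in the p38KO library, at 55.6 CPM in neutrophils with Cxcr2 against 9.97 CPM in vehicle, at 201 against 3.69 CPM in those without, and at 95.4 against 2.07 CPM in macrophages. In the lymphocyte gate they were at 227 CPM in p38KO against 26.3 CPM in vehicle. Epithelial markers of the tumor were at 205 against 4.15 CPM in p38KO neutrophils with Cxcr2, where Krt14 alone gave 189 CPM. In monocytes they were at 122 against 5.46 CPM, mostly from Epcam, Krt18 and Krt8. Leaving out cells with mast cell transcripts was among the alternatives tried, and what it changed is given at the end. The part of epithelial transcripts in the receptor values was not tested. Dendritic cell markers in the monocyte gate were at 142, 158 and 381 CPM. The deleted gene Mapk14 was intact in the host leukocytes and does not check the labels; it had 32.7, 39.4 and 36.6 CPM in neutrophils with Cxcr2.

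Gene positions are those of GENCODE M21 on GRCm38, counted from base 1. Fpr1 (ENSMUSG00000045551) lies on the minus strand of chromosome 17 from 17876471 to 17883940, and Fpr2 (ENSMUSG00000052270) on the plus strand from 17887824 to 17893952, with 3883 bases between them. Fpr2 overlaps its paralog Fpr3 on the same strand, and Fpr3 had no more than 4 UMIs in any of the myeloid gates. The effect of the overlap on the Fpr2 counts was not tested. Ltb4r1 (ENSMUSG00000046908) is on chromosome 14, plus strand, from 55765962 to 55768494, and C5ar1 (ENSMUSG00000049130) is on chromosome 7, minus strand, from 16246743 to 16259540. Ptafr (ENSMUSG00000056529) spans 132564067 to 132582683 on the plus strand of chromosome 4. Hcar2 (ENSMUSG00000045502), with a single exon, spans 123863570 to 123865499 on the minus strand of chromosome 5, and Ccrl2 (ENSMUSG00000043953) spans 111054486 to 111057519 on the minus strand of chromosome 9. Apart from Fpr2, no member overlaps another annotated gene.

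The 250 bases before the RefSeq transcription start (GRCm38.p6) are shown for Ccrl2 and Ptafr, which were higher in neutrophils without Cxcr2 in all 3 libraries, and for Ltb4r1, which was lower there. Of the 7 members, 6 had such a window and Hcar2 had none. Capitals mark matches to 5 motifs searched on both strands, AP-1 (TGANTCA), CRE (TGACGTCA), C/EBP (TTGCNNAA), NF-kB (GGG and CC with any 5 bases between) and PU.1 (GAGGAAG). Ccrl2 has 3 start sites, and the one farthest upstream is used, at chr9:111057519-111057768 (minus strand). The lowest of these coordinates is also the first transcribed base of the GENCODE gene, so distances to the GENCODE start can differ slightly. The Ptafr window is chr4:132563817-132564066 (plus strand) and the Ltb4r1 window chr14:55765712-55765961 (plus strand), each printed 5′ to 3′.
Ccrl2: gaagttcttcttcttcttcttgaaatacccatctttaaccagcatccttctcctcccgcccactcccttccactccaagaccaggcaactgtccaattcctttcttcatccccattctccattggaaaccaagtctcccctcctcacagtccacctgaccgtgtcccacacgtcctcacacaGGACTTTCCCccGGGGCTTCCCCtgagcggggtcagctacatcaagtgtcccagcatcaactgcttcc
Ptafr: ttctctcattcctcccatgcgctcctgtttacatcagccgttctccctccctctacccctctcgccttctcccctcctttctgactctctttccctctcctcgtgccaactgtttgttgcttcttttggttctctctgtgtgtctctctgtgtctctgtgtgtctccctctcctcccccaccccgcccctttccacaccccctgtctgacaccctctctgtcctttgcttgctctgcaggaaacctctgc
Ltb4r1: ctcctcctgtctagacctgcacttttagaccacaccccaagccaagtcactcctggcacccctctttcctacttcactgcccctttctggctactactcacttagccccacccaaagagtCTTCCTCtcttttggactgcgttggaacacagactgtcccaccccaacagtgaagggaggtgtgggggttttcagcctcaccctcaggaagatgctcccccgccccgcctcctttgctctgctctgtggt
The Ccrl2 window held 3 matches to the NF-kB motif, GGACTTTCCC at 68 bases before the start and the overlapping pair GGGGCTTCCC and GGGCTTCCCC at 56 and 55. This motif was found in 45.8% of the 32851 windows of the same length, so a match is common. The windows at the other Ccrl2 starts held no match to any of the 5 motifs. The Ltb4r1 window held 1 PU.1 match at 130 bases before the start, a motif found in 10.6% of windows. Ptafr, Fpr1, Fpr2 and C5ar1 held no match to any of the 5, which says only that these letters are not in these windows. AP-1, CRE and C/EBP letters were found in 6.75%, 1.55% and 9.56% of windows and in none of the members' windows.

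In neutrophils with Cxcr2 all 7 receptors were far above their level in lymphocytes, and they differed in how far they extended into other myeloid cells. Fpr1, the formyl peptide receptor of highest affinity, was at 193, 193 and 191 CPM in neutrophils with Cxcr2. In neutrophils without Cxcr2 it was at 93.4, 92.9 and 138 CPM, and in monocytes at 8.65, 11.4 and 11.3 CPM. It was thus between 16.9 and 22.3 times as high in neutrophils with Cxcr2 as in monocytes. In macrophages it was at 4.43, 6.08 and 2.10 CPM, and in each library this interval overlapped that of lymphocytes, which had 1.60, 2.25 and 1.79 CPM.

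Fpr2, its paralog, reached further into monocytes. It had 370, 371 and 389 CPM in neutrophils with Cxcr2, 242, 221 and 317 CPM in those without, 79.7, 78.6 and 85.1 CPM in monocytes and 31.3, 39.8 and 20.4 CPM in macrophages. Lymphocytes had 5.03, 3.76 and 1.79 CPM. In all 3 libraries the order from neutrophils with Cxcr2 down to lymphocytes was the same, and the only neighbours whose intervals overlapped were the 2 neutrophil gates of the p38KO library.

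Ltb4r1 senses the leukotriene that neutrophils themselves release to recruit more neutrophils. Per UMI, it was nearly as high in monocytes as in neutrophils with Cxcr2. Neutrophils with Cxcr2 had 419, 398 and 321 CPM, and monocytes 359, 373 and 258 CPM, with overlapping intervals in the p38i library. Neutrophils without Cxcr2 had 162, 205 and 134 CPM, which is between 0.452 and 0.550 times the monocyte level. Macrophages had 68.2, 78.7 and 32.7 CPM, and lymphocytes 31.3, 25.0 and 20.2 CPM. Monocytes were deeper than neutrophils, with a median of 9138.5, 7902 and 8399 UMIs. With all UMIs of a cell counted, Ltb4r1 was seen in 77.5%, 74.2% and 61.8% of monocytes. In neutrophils with Cxcr2 it was seen in 59.1%, 57.7% and 46.2%, so by this measure monocytes came first.

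C5ar1, the receptor through which C5a recruits and primes myeloid cells, was well above background in macrophages too. Its level was 634, 571 and 686 CPM in neutrophils with Cxcr2, 451, 387 and 455 CPM in neutrophils without it, 414, 321 and 273 CPM in monocytes, and 196, 177 and 169 CPM in macrophages. Lymphocytes had 10.3, 12.3 and 5.88 CPM, so the macrophage level was between 14.4 and 28.8 times that of lymphocytes. Of all C5ar1 UMIs of kept cells, macrophages held 10.1% in the vehicle, 8.28% in the p38i and 26.9% in the p38KO library. Macrophages were 4.37%, 3.88% and 14.4% of kept cells, but they were deeper. Their median was 18728, 16966 and 13572 UMIs, against 2634, 2475 and 2246 in neutrophils with Cxcr2. The share of UMIs therefore cannot be set against the share of cells. Per UMI, the macrophage level was below that of all kept cells together, which had 315, 291 and 234 CPM. With all UMIs of a cell counted, C5ar1 was seen in 78.4%, 76.3% and 71.1% of macrophages. In neutrophils with Cxcr2 it was then seen in 78.9%, 75.2% and 75.8%.

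Ptafr, Hcar2 and Ccrl2 were all highest in neutrophils without Cxcr2. Ptafr had 894, 537 and 1062 CPM there, 393, 330 and 574 CPM in neutrophils with Cxcr2, 202, 148 and 156 CPM in monocytes, and 49.0, 52.0 and 56.5 CPM in macrophages. Hcar2 had 2133, 1368 and 2832 CPM in neutrophils without Cxcr2 and 911, 674 and 1295 CPM in those with it. Its step down to monocytes was steep, at 73.1, 75.7 and 79.2 CPM, and macrophages had 30.1, 23.7 and 27.4 CPM, which in the p38i library overlapped the lymphocyte interval around 20.8 CPM.

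Ccrl2 had 2875, 1446 and 3825 CPM in neutrophils without Cxcr2 and 1166, 689 and 1566 CPM in those with it. Monocytes had 225, 115 and 150 CPM and macrophages 89.5, 38.9 and 56.4 CPM. Lymphocytes had 39.3, 36.3 and 44.2 CPM, and in the p38i library the macrophage and lymphocyte intervals overlapped. Whether this lymphocyte level is background or expression was not tested. The plot of levels by gate sets these orders side by side.

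**Figure D1:**
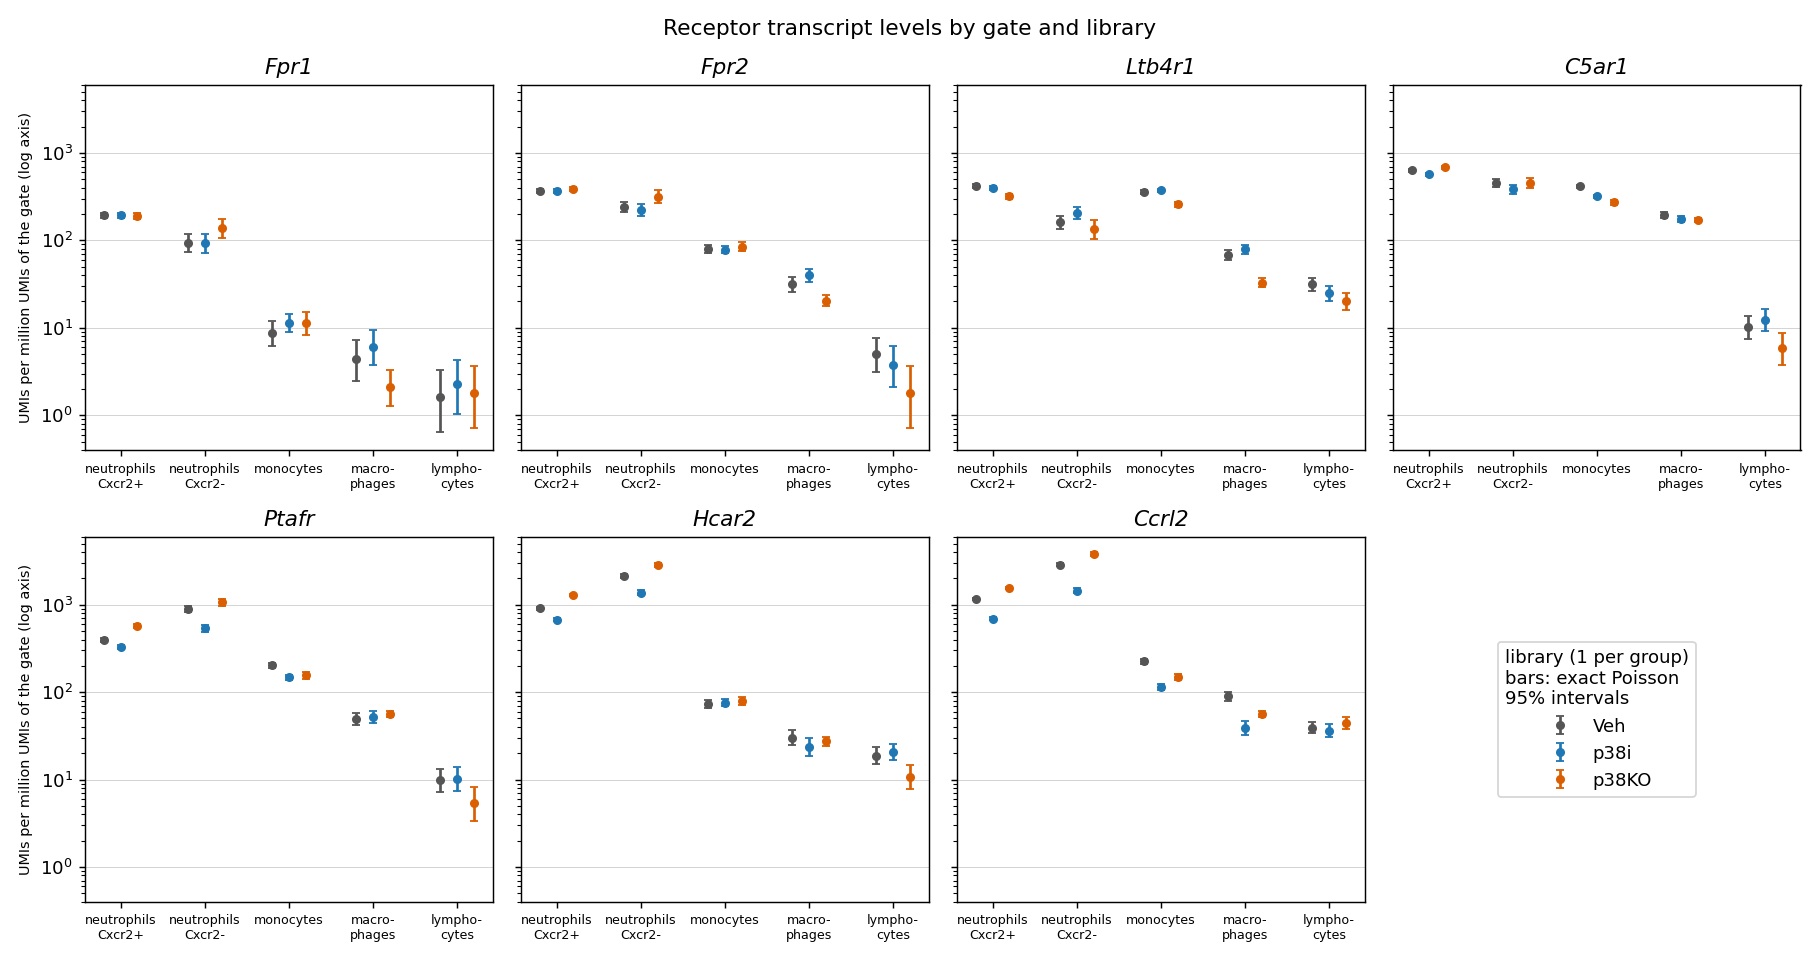
Level of each receptor (y, CPM, log axis) in 5 gates (x) of the 3 libraries (colours), with exact Poisson 95% intervals. Per UMI, Fpr1, Fpr2, Ltb4r1 and C5ar1 are highest in neutrophils with Cxcr2, and Ptafr, Hcar2 and Ccrl2 in those without. In the vehicle library Hcar2 is at 2133 CPM in neutrophils without Cxcr2.

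Gated cells held most, though not all, of the receptor transcripts. Cells outside every gate carried between 18.0% and 46.0% of a member's UMIs in a library. The median depth of these cells was 2374, 2195 and 2323 UMIs, and their levels are not part of the values above.

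**Figure D2:**
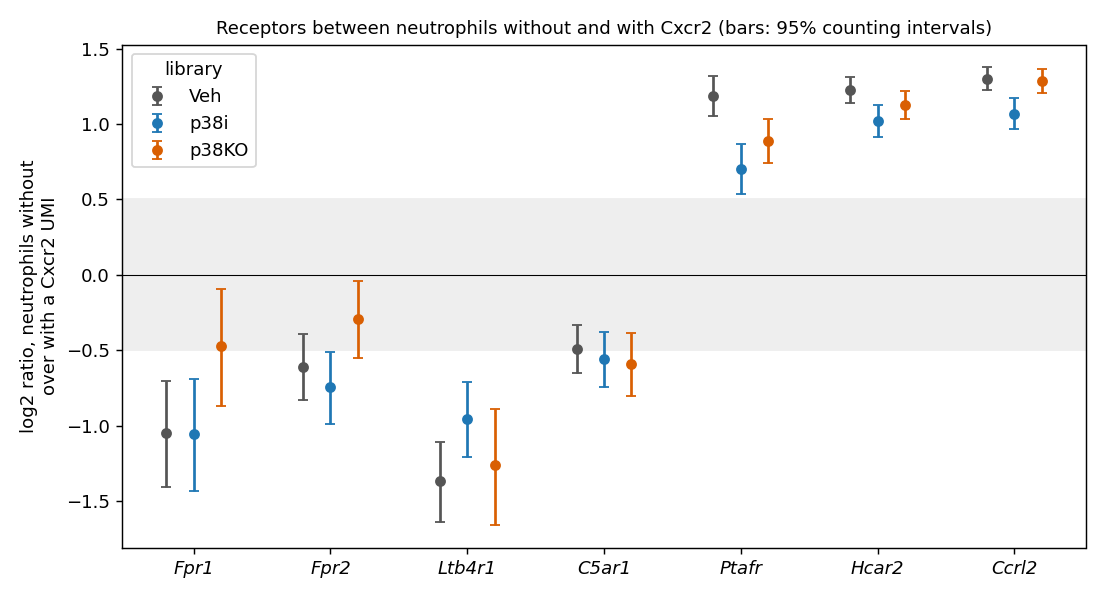
Log2 ratio of neutrophils without a Cxcr2 UMI over those with one (y) for each receptor (x) and library (colours), with 95% counting intervals; the grey band holds ratios under the size limit of 0.5. Ptafr, Hcar2 and Ccrl2 lie above the band in all 3 libraries, and Ltb4r1 lies below it in all 3, at -1.37, -0.96 and -1.26.

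Within neutrophils, the receptors lay on both sides of the Cxcr2 split. A ratio was called where it was at least 0.5 on the log2 scale either way, its interval left out 0 and both sides had at least 20 UMIs together. With CPM as the scale, 3 of the 7 members were called higher without Cxcr2 in all 3 libraries and 1 was called lower in all 3. Over all 6040 genes with enough counts in every library, 5.98% were called higher and 4.47% lower in all 3. The split is within each library, so it does not rest on a comparison of pools, but cells of a library are not replicates, and Cxcr2 itself, at 0 by construction on one side, is no result.

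Ccrl2 was higher without Cxcr2 by log2 ratios of 1.30 (1.23 to 1.38), 1.07 (0.96 to 1.17) and 1.29 (1.21 to 1.37), which is 2.47-, 2.10- and 2.44-fold. Hcar2 followed with 1.23 (1.14 to 1.31), 1.02 (0.91 to 1.13) and 1.13 (1.04 to 1.22), and Ptafr with 1.19 (1.06 to 1.32), 0.70 (0.53 to 0.87) and 0.89 (0.74 to 1.04). For Ptafr the vehicle interval lay above those of the other libraries. The 3 genes share no ligand class, since they bind chemerin, ketone bodies and a phospholipid.

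Ltb4r1 was lower without Cxcr2, with log2 ratios of -1.37 (-1.64 to -1.11), -0.96 (-1.21 to -0.71) and -1.26 (-1.66 to -0.89). Fpr1 was called lower in the vehicle and p38i libraries, at -1.05 (-1.41 to -0.70) and -1.05 (-1.43 to -0.69), and was at -0.47 (-0.87 to -0.09) in p38KO, short of the size limit. Fpr2 gave -0.61 (-0.83 to -0.39), -0.74 (-0.99 to -0.51) and -0.29 (-0.55 to -0.04), the last again not called. C5ar1 had the smallest spread between libraries, at -0.49, -0.56 and -0.59, and was called in p38i and p38KO. All 4 of these genes had intervals below 0 in all 3 libraries with the gates as read here, which did not hold for Fpr1 and Fpr2 when the gates were read after thinning.

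The cells without a Cxcr2 UMI were shallower, with a median of 2348, 1998 and 1971 UMIs against 2634, 2475 and 2246 in those with one, and some of them may carry Cxcr2 transcripts that were not captured. When every cell was thinned to 1500 UMIs before gating, and under each of the other gates, filters and scalings tried, Ccrl2 and Hcar2 kept their higher call in all 3 libraries. Ltb4r1 kept its lower call in all 3 except in p38i with a size limit of 1, while Ptafr in p38i lost its call under thinning and under median-ratio scaling. Under thinning Fpr1 and Fpr2 of p38KO were at -0.19 (-0.51 to 0.12) and -0.10 (-0.32 to 0.11), Fpr2 of vehicle lost its call at -0.22 (-0.43 to -0.01), and C5ar1 of p38KO lost its call at -0.49 (-0.67 to -0.31). Median-ratio scaling moved these genes the other way, and all were then called lower in all 3 libraries. Fpr1 was at -1.27, -1.27 and -0.69, Fpr2 at -0.83, -0.96 and -0.51, and C5ar1 at -0.71, -0.78 and -0.81. The number of members called across the split thus depended on the scaling. Neutrophil markers differed across the split as well, but not all in the same direction. S100a8, S100a9, Csf3r, Hdc, Mmp9, Trem1 and Retnlg were lower without Cxcr2 in all 3 libraries. Clec4d was higher there, at 1393, 1452 and 1867 CPM against 1268, 1189 and 1397 CPM with Cxcr2. Il1r2 was lower without Cxcr2 in vehicle and slightly higher in p38i and p38KO. Retnlg, a gene of the resistin family and a marker of young neutrophils, was at 2930, 5223 and 1306 CPM in neutrophils with Cxcr2 and at 1126, 2626 and 617 CPM in those without. In neutrophils with no Retnlg UMI, a split added after the data were seen, the ratio of Ccrl2 was still 1.18, 0.77 and 1.17 and that of Hcar2 1.23, 0.80 and 1.08.

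The same division was visible in the share of cells in which a transcript was seen. Each kept cell was thinned to 1500 UMIs, so that depth was equal and no cell was lost. In neutrophils without Cxcr2, Ccrl2 was then seen in 77.9% (72.7% to 82.4%) of the vehicle, 64.6% (58.9% to 70.0%) of the p38i and 85.2% (79.7% to 89.7%) of the p38KO cells, with exact Clopper-Pearson 95% intervals. In those with Cxcr2 it was seen in 53.4%, 40.1% and 52.2%. Hcar2 was seen in 78.9%, 70.9% and 80.0% of cells without Cxcr2 and in 48.8%, 45.5% and 53.3% of cells with it. Ltb4r1 went the other way, with 16.4%, 21.5% and 15.2% without Cxcr2 and 42.6%, 40.4% and 33.4% with it.

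Lymphocytes served as the comparison for background. Ltb4r1 is also known in activated T cells, and its level in lymphocytes is not read as background. At the same depth Ccrl2 was seen in 5.69%, 5.36% and 3.86% of lymphocytes and no other member in more than 3.58%. Before thinning, lymphocytes had a median of 5048, 3975 and 4851 UMIs, and Ccrl2 was seen in 13.6%, 12.0% and 10.2% of them, against 83.2%, 71.2% and 87.6% of neutrophils without Cxcr2 and 63.7%, 47.8% and 57.9% of neutrophils with it. At the thinned depth 8.38%, 8.06% and 6.50% of macrophages had a Ccrl2 UMI, with intervals that overlapped those of lymphocytes. Over all UMIs the macrophage level was above that of lymphocytes in vehicle (89.5 against 39.3 CPM) and in p38KO (56.4 against 44.2 CPM), without overlap of intervals. In p38i these intervals overlapped. Fpr1 was seen in at most 1.08% of thinned macrophages, which is at the level of background.

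**Figure D3:**
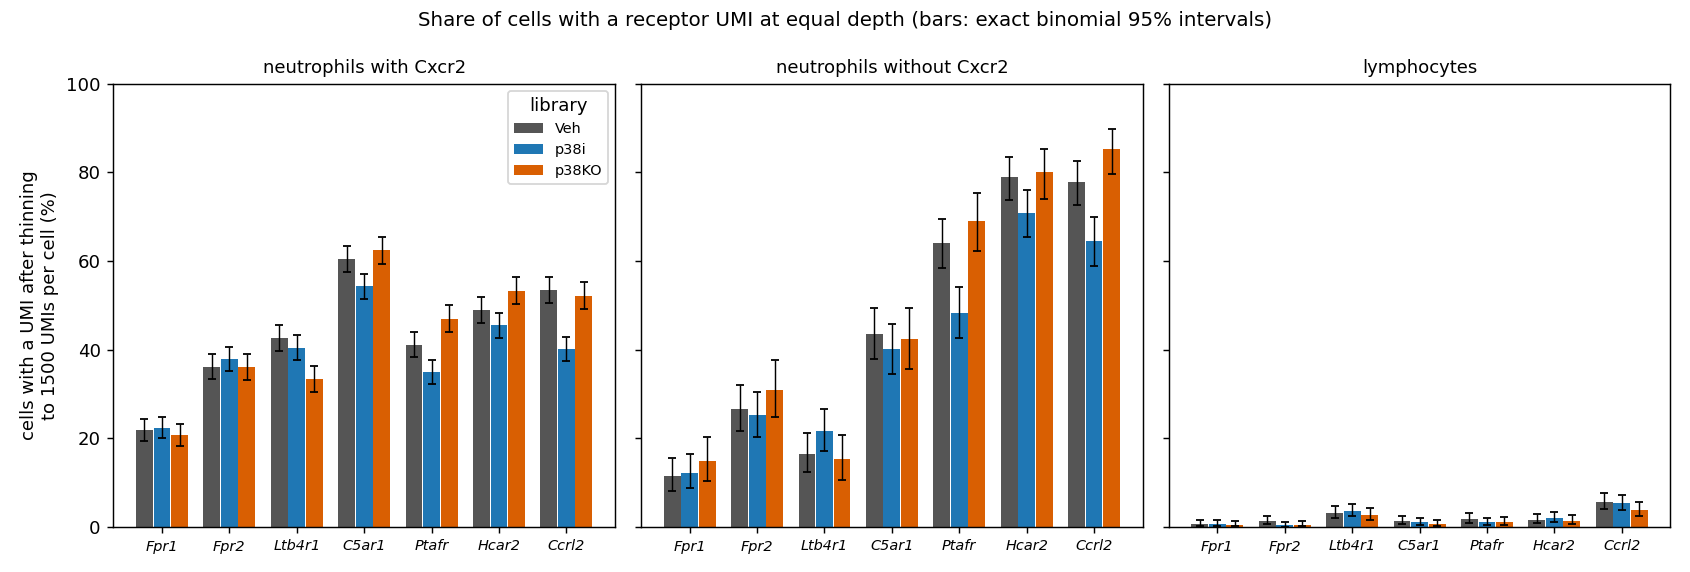
Share of cells with at least 1 UMI of each receptor (y, percent) after thinning to 1500 UMIs per cell, for neutrophils with Cxcr2, neutrophils without it and lymphocytes, by library (colours), with exact binomial 95% intervals. Lymphocytes stay at or under 5.69%, and Hcar2 and Ccrl2 are seen in 64.6% or more of neutrophils without Cxcr2 in every library.

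Single cells often carried several of the receptors. At the thinned depth a neutrophil with Cxcr2 had UMIs of 3.04, 2.75 and 3.05 of the 7 receptors on average, and one without Cxcr2 had 3.19, 2.83 and 3.38, so the number per cell was close on either side of the split while its makeup differed. Monocytes had 1.35, 1.28 and 1.15, macrophages 0.623, 0.548 and 0.493, and lymphocytes 0.153, 0.140 and 0.105. After thinning, Hcar2 and Ccrl2 were seen together in 63.4%, 51.0% and 73.8% of neutrophils without Cxcr2 and in 31.2%, 24.3% and 36.6% of those with it. In monocytes they were then seen together in no more than 5.07% of cells.

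The members were then divided into Fpr1, Fpr2, Ltb4r1 and C5ar1 on one side and Ptafr, Hcar2 and Ccrl2 on the other, a division made after their levels were seen. Neutrophils without Cxcr2 that had UMIs of the second set only made up 34.9%, 34.4% and 29.5% of that gate, against 12.0%, 10.4% and 11.2% of neutrophils with Cxcr2. Cells with the first set only made up 3.02%, 8.28% and 3.81% without Cxcr2 and 19.4%, 27.0% and 19.2% with it. Cells with both sets were the most frequent kind in both neutrophil gates, at between 55.0% and 66.8%.

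**Figure D4:**
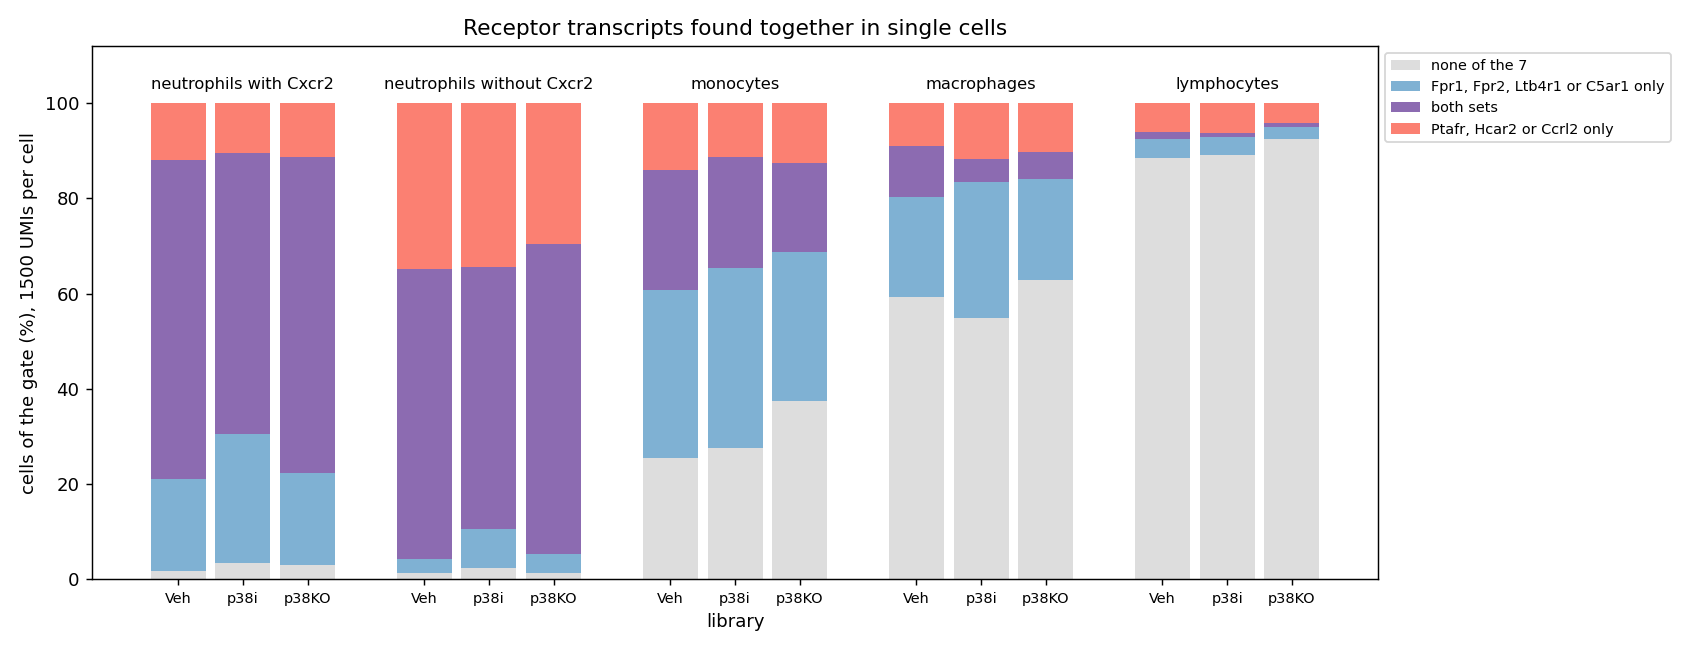
Share of cells of a gate (y, percent) that had UMIs of none of the 7 receptors, of only one set, or of both sets, after thinning to 1500 UMIs per cell, for each gate and library (x). Neutrophils without Cxcr2 have the largest share with Ptafr, Hcar2 or Ccrl2 only, 34.9% in the vehicle library, and lymphocytes mostly have none.

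Treatment with the p38 inhibitor was compared with vehicle in each gate. Ccrl2 was the only member called lower in all 4 myeloid gates. In neutrophils with Cxcr2 it was at 689 CPM (663 to 716) in p38i against 1166 CPM (1131 to 1202) in vehicle, a log2 ratio of -0.76 (-0.83 to -0.69). In those without Cxcr2 the ratio was -0.99 (-1.10 to -0.89), in monocytes -0.97 (-1.11 to -0.83) and in macrophages -1.20 (-1.51 to -0.90), where the p38i value was at the lymphocyte level. Intervals of the groups did not overlap in any of these gates. Among lymphocytes the same gene was at 36.3 against 39.3 CPM, with overlapping intervals.

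In neutrophils with Cxcr2, 1 of 7 members was called lower and none higher, where 2.71% of all 7759 genes tested were called lower and 6.51% higher. The median log2 ratio of the members was -0.15 and that of all genes 0.08. Hcar2 at -0.44 (-0.51 to -0.36), Ptafr at -0.25 (-0.36 to -0.14) and C5ar1 at -0.15 (-0.24 to -0.07) had intervals below 0 but did not reach the size limit. Fpr1, Fpr2 and Ltb4r1 had ratios of 0.00, 0.01 and -0.08 with intervals that held 0, and the interval of Fpr1, from -0.15 to 0.15, was within the size limit on either side.

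In neutrophils without Cxcr2, 3 of 7 members were called lower and none higher, where 5.60% of 4785 genes were lower and 5.43% higher. Besides Ccrl2 these were Ptafr, at 537 CPM (485 to 593) against 894 CPM (830 to 961), a ratio of -0.73 (-0.92 to -0.56), and Hcar2, at 1368 CPM (1285 to 1456) against 2133 CPM (2033 to 2235), a ratio of -0.64 (-0.75 to -0.53). The other 4 members had intervals that held 0. Retnlg and S100a8 were higher in p38i, at 2626 against 1126 CPM and 57906 against 45022 CPM. S100a8 is a calgranulin and among the most abundant transcripts of neutrophils. With S100a8 and S100a9 left out of the total, Ccrl2 was at -0.94, Ptafr at -0.68 and Hcar2 at -0.59, and all were still called. Apart from this and the Retnlg split that follows, their part in the result was not tested. In neutrophils without Cxcr2 and with no Retnlg UMI the ratio of Ccrl2 was -1.05 (-1.18 to -0.91), that of Hcar2 -0.82 (-0.98 to -0.67) and that of Ptafr -0.71 (-0.94 to -0.48). Among those with a Retnlg UMI the ratios were -0.85, -0.40 and -0.75, and Hcar2 was no longer called.

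Among monocytes Ccrl2 was the 1 member called lower, and none was called higher, where 2.67% of 10272 genes were lower and 3.97% higher. Ptafr, at -0.45 (-0.58 to -0.31), and C5ar1, at -0.37 (-0.46 to -0.28), had intervals below 0 without reaching the size limit. In macrophages Ccrl2 was again the only call, where 4.07% of 9837 genes were lower and 3.00% higher. The calls of Ccrl2 held in each gate under every alternative gate, filter and scaling tried other than a size limit of 1, which it passed only in macrophages.

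**Figure D5:**
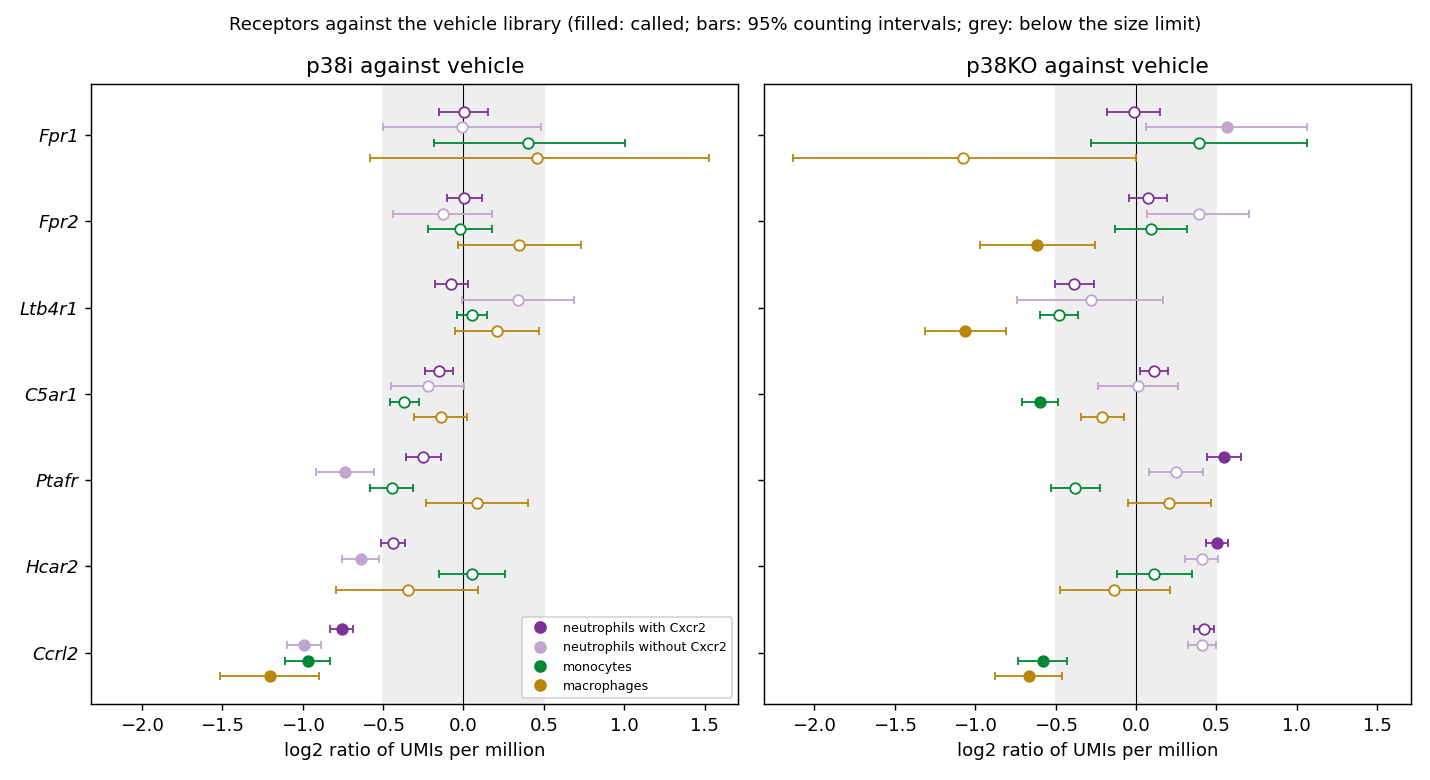
Log2 ratio of each receptor to the vehicle library (x) in p38i (left) and p38KO (right), by gate (colours), with 95% counting intervals; filled points are called and the grey band holds ratios under the size limit of 0.5. Ccrl2 lies below the band in all 4 gates of p38i, down to -1.20 in macrophages, while in p38KO it is above 0 in both neutrophil gates and below the band in monocytes and macrophages.

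The p38KO library, which shares the vehicle library with the comparison above, gave other values. In neutrophils with Cxcr2 of p38KO tumors 2 of 7 members were called higher and none lower, where 9.24% of 7497 genes were called higher and 2.65% lower. Ptafr was at 574 CPM (546 to 603) against 393 CPM (372 to 414), a log2 ratio of 0.55 (0.44 to 0.65), and Hcar2 at 1295 CPM (1253 to 1339) against 911 CPM (881 to 943), a ratio of 0.51 (0.44 to 0.58). Ccrl2 was at 0.43 (0.36 to 0.49), under the size limit, and its share of cells at equal depth was 52.2% against 53.4%, so the level and the share did not go together and no order is read from the share. Both calls were close to the limit, with Ptafr kept in 10 and Hcar2 in 6 of 16 alternatives, and neither held under median-ratio scaling, where Ptafr was at 0.45 and Hcar2 at 0.41, or with S100a8 and S100a9 left out of the total, where they were at 0.47 and 0.43. S100a8 was at 58268 CPM in p38KO and 76913 CPM in vehicle.

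Ltb4r1 was lower in the same cells, at 321 CPM (300 to 343) against 419 CPM (398 to 441), a ratio of -0.38 (-0.51 to -0.26) that did not reach the size limit. Its share of cells at equal depth was 33.4% (30.5% to 36.3%) against 42.6% (39.7% to 45.5%). Fpr1 and Fpr2, at -0.01 (-0.18 to 0.15) and 0.07 (-0.04 to 0.19), had intervals within the size limit. In neutrophils without Cxcr2, Fpr1 was the 1 member called higher, at 138 CPM (106 to 176) from 64 UMIs against 93.4 CPM (73.6 to 117) from 76 UMIs, a ratio of 0.56 (0.06 to 1.06), where 9.02% of 4334 genes were higher and 6.95% lower. These Poisson intervals overlapped, and the call was lost under median-ratio scaling at 0.48 (-0.02 to 0.98). Ccrl2 and Hcar2 were both at 0.41 there, Fpr2 at 0.39 and Ptafr at 0.25, with intervals above 0 and no call.

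Monocytes of the p38KO library had 2 members called lower and none higher, where 2.25% of 10044 genes were lower and 10.8% higher. C5ar1 was at 273 CPM (257 to 291) against 414 CPM (395 to 433), a ratio of -0.60 (-0.71 to -0.49), and Ccrl2 at 150 CPM (138 to 163) against 225 CPM (211 to 239), a ratio of -0.58 (-0.73 to -0.43). Ltb4r1 at -0.48 and Ptafr at -0.38 were below 0 without a call. The 10 neutrophil markers summed to 4402 CPM in this gate against 9452 CPM in vehicle, and most of this was S100a8 and S100a9. S100a8 was at 1785 against 3812 CPM and S100a9 at 1884 against 4591 CPM. Csf3r (107 against 85.4 CPM), Cxcr2 (53.5 against 41.4 CPM) and Hdc (64.6 against 60.6 CPM) were higher, and the other markers were lower. The part of neutrophil transcripts in these values was not tested. Dendritic cell markers were higher (381 against 142 CPM), and without cells that had dendritic cell or cycling transcripts C5ar1 was at -0.41 and Ccrl2 at -0.46, both below 0 and neither called. When the gate was read after thinning, Ccrl2 was at -0.07 (-0.28 to 0.14), while C5ar1 stayed at -0.55.

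Macrophages of the p38KO library had 3 members called lower and none higher, where 3.40% of 10872 genes were lower and 9.23% higher. Ltb4r1 was at 32.7 CPM (29.1 to 36.7) against 68.2 CPM (59.7 to 77.6), a ratio of -1.06 (-1.31 to -0.81), and this call held under all 12 alternatives that apply to it other than the size limit of 1, which it also passed. Ccrl2 was at -0.67 (-0.88 to -0.46) and Fpr2 at -0.61 (-0.97 to -0.26). Without cells that had dendritic cell or cycling transcripts these were at -0.29 and -0.45 and were not called, and Ccrl2 was also not called, at -0.43, with a mitochondrial limit of 5%. C5ar1 was at -0.21 (-0.34 to -0.07) and Ptafr at 0.20 (-0.05 to 0.47). These cells were shallower, with a median of 13572 UMIs in p38KO against 18728 in vehicle, and its part in the result was not tested.

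The p38KO and p38i libraries were also set directly against each other. In neutrophils without Cxcr2, Ccrl2 was 2.65-fold higher in p38KO, a log2 ratio of 1.40 (1.29 to 1.51), Hcar2 was at 1.05 (0.93 to 1.17) and Ptafr at 0.98 (0.79 to 1.18), while the median over all genes tested was -0.04. In neutrophils with Cxcr2 these were 1.18 (1.11 to 1.25), 0.94 (0.87 to 1.02) and 0.80 (0.69 to 0.90), with a median of 0.01 over all genes. Ltb4r1 was lower in p38KO in every gate, at -0.31, -0.62, -0.53 and -1.27 in neutrophils with Cxcr2, neutrophils without it, monocytes and macrophages. In macrophages Fpr2 was at -0.96 (-1.29 to -0.63) and Fpr1, from only 19 and 20 UMIs, at -1.53 (-2.52 to -0.55). The groups differ in both the tumor line and the treatment, and each is 1 library, so batch and condition cannot be told apart.

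Other genes of the pathway were read from 3 lists. Of 20 other chemoattractant receptors, 14 were tested in neutrophils with Cxcr2 in either comparison. In p38i 3 were called higher and 2 lower with a median of 0.42, and in p38KO 7 were called higher and none lower with a median of 0.45, against medians of 0.08 and 0.10 over all genes. Of all genes in this gate, 6.51% were called higher and 2.71% lower in p38i, and 9.24% and 2.65% in p38KO. Gpr84, a receptor of medium-chain fatty acids, was at 43.5 CPM in p38KO and 9.69 CPM in vehicle, a log2 ratio of 2.17 (1.61 to 2.75), and C3ar1, the receptor of the complement fragment C3a, was at 8.78 and 1.94 CPM, a ratio of 2.18 (0.92 to 3.64) from 24 and 7 UMIs. In p38i Gpr84 had 12.6 CPM and was not called, and C3ar1 had 7.62 CPM and was called, at 1.97 (0.75 to 3.41). C3ar1 is mainly a gene of monocytes, which had 308 CPM in vehicle, and macrophage markers summed to 652 CPM in the p38KO neutrophils with Cxcr2 against 314 CPM in vehicle, and the part of such transcripts in the C3ar1 value was not tested.

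Of 19 ligand genes and enzymes of ligand synthesis, 15 were tested in neutrophils with Cxcr2 in p38i and 16 in p38KO, with 1 called higher and 1 lower in p38i and 2 higher and 2 lower in p38KO. The shares over all genes were 6.51% and 2.71% in p38i and 9.24% and 2.65% in p38KO, and nothing about the list is read from these counts. Saa3, a serum amyloid A protein and a reported ligand of Fpr2, was at 424 CPM in vehicle, 1492 CPM in p38i and 96.2 CPM in p38KO. Against vehicle, p38i gave a log2 ratio of 1.81 (1.73 to 1.90), and p38KO gave -2.14 (-2.33 to -1.95). Camp, the cathelicidin precursor whose peptide also acts on Fpr2, had 31.0 CPM in vehicle monocytes, 230 CPM in p38i and no UMI in p38KO. With a floor of 3 counts put in for p38KO it was 38.2-fold lower there than in vehicle, a log2 ratio of -5.26. This value leaves out the counting error of the vehicle library. The counting interval of the ratio, which includes that error, reached up to -4.94, a smaller drop. The neutrophil markers of the same monocyte gate summed to 9452, 13612 and 4402 CPM, and their part in the Camp values was not tested. In neutrophils with Cxcr2 it was at 137, 18.9 and 1.46 CPM.

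Of 23 signalling and desensitisation genes downstream of the receptors, all were tested in neutrophils with Cxcr2, where 1 was called higher in p38i and 2 higher and 1 lower in p38KO, with medians of -0.01 and 0.09. Over all genes 6.51% were called higher and 2.71% lower in p38i, and 9.24% and 2.65% in p38KO, so no more is read from these counts either. Rgs1, which shortens G protein signals, was at 69.0 CPM in p38i monocytes and 71.9 CPM in p38KO monocytes against 215 CPM in vehicle, ratios of -1.64 (-1.81 to -1.48) and -1.58 (-1.78 to -1.38). Grk6, a kinase that desensitises such receptors, was at 21.9 CPM in p38i neutrophils without Cxcr2 against 7.38 CPM, from 16 and 6 UMIs, a ratio of 1.57 (0.14 to 3.21).

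Genes with the pattern most like each member were sought over the 15 sums of 5 gates and 3 libraries, as the Pearson correlation of log2(CPM + 10) among 10349 genes. The sums share libraries and gates and are not independent, so the values only describe. Hcar2 was the closest gene to Ccrl2 (r = 0.990), ahead of the chemokine gene Cxcl2 (0.985) and the nucleotide receptor P2ry2 (0.984). Hcar2 itself was closest to Ankrd33b (0.994), the tissue factor gene F3 (0.992) and Jdp2 (0.992), and Ptafr to the stress transcription factor Atf3 (0.994), Rab20 (0.988) and the glycolytic regulator Pfkfb3 (0.987).

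The closest genes of the other members were highest in neutrophils with Cxcr2, as these members were. Fpr1 was closest to Dhrs9 (0.995), Mrgpra2b (0.994) and Steap4 (0.992), and Fpr2 to Slc16a3 (0.995), Tnfaip2 (0.995) and Apobr (0.992). Ltb4r1 had looser neighbours, Ifitm6 (0.978), Kdm7a (0.964) and Anxa1 (0.961), the last coding for annexin A1, a ligand of Fpr2. C5ar1 was closest to Sirpb1b (0.995), the cytokine receptor chain Csf2rb (0.994) and Tlr13 (0.994). Between members the values ran from 0.637 for Ltb4r1 and Ccrl2 to 0.990 for Hcar2 and Ccrl2.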

How the data were processed

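Live CD45+ cells of 4T1 tumors were profiled in 3 libraries. Reads were counted by the authors with Cell Ranger, for which the headers give 6.0.0, and UMI counts per gene and barcode were deposited, not normalized. Every deposited barcode had at least 500 UMIs. The submitters' processing notes also name mm10, R 4.2.1 and Seurat 5. The reference annotation is not given in the sources used here. Kept cells had at least 1500 UMIs, 300 genes and at most 20% mitochondrial counts. Doublets were not removed.

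Counts were summed per gate and library and given as CPM of the gate total. Each group is 1 library, so no test was made. A ratio was called where its size was 0.5 or more (log2), its 95% interval left out 0 and 20 counts or more were present, and 0.5 stands in for a count of 0. Gates were neutrophils (Csf3r at least 2, split by 1 Cxcr2 UMI), monocytes (Ly6c2 plus Fn1 at least 3 and above Csf3r, C1qa at most 2), macrophages (C1qa at least 3 and above Csf3r) and lymphocytes (Cd3d, Cd3e, Cd3g, Cd79a, Ms4a1 and Ncr1 at least 3, with Csf3r, Fn1 and C1qa at most 1), and the other gates allowed at most 1 UMI of these lymphocyte genes. Thinning used seed 1. Summed UMIs of a gate ranged from 463257 to 9047052, and the intervals cover counting error only. The scripts were tested on simulated data.

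Named genes are the members, the 2 genes per list with the largest called ratio in neutrophils or monocytes, and the 3 most similar genes per member, among genes with at least 100 counts, leaving out Gm-numbered, Rik, mitochondrial and ribosomal protein genes. The members and lists were chosen with earlier results of these data known. A set of 17 alternatives was planned and 4 were added after the data were seen. Python 3.11.15, numpy 2.4.6, scipy 1.17.1, pandas 2.3.3 and matplotlib 3.10.9 were used.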

Additional observations from a re-analysis of the deposited data

Results flagged for a closer look

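In the p38KO library the ratio to vehicle lay on opposite sides of 0, with intervals that left out 0, in neutrophils and in another myeloid gate for 4 members, which for Ptafr, C5ar1 and Fpr2 did not hold under every alternative. The difference between the gates was not tested in any of them, since each group is 1 library.

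Ptafr was at 0.55 in neutrophils with Cxcr2 and -0.38 in monocytes, a difference of 0.923 on the log2 scale, and the monocyte value was at -0.08 (-0.28 to 0.12) with gates read after thinning. C5ar1 was at 0.11 and -0.60 in the same gates, a difference of 0.711, but in neutrophils it was at 0.02 (-0.07 to 0.10) under median-ratio scaling and 0.04 (-0.05 to 0.13) with S100a8 and S100a9 left out of the total. Ccrl2 was at 0.43 in neutrophils with Cxcr2 and -0.67 in macrophages, a difference of 1.09, and the macrophage value moved to -0.29 without cells with dendritic cell or cycling transcripts. Fpr2 was at 0.39 in neutrophils without Cxcr2 and -0.61 in macrophages, a difference of 1.00. The first value was at 0.30 (-0.01 to 0.62) under median-ratio scaling, and the second at -0.45 (-0.96 to 0.07) without cells with dendritic cell or cycling transcripts.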

How the results depend on the processing

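No paired analysis was possible because the groups share only replicate number 1 and no test was made. The values checked are how many of the 7 receptors were called: in p38i 1, 3, 1 and 1 and in p38KO 2, 1, 2 and 3 in neutrophils with Cxcr2, neutrophils without it, monocytes and macrophages, and 4 in the Cxcr2 split. Of 139 recomputed counts, 108 stayed within 1.5 times and 31 did not. A count can stay while the members behind it change. With at least 3 Csf3r UMIs, p38KO neutrophils without Cxcr2 lost Fpr1 and had Ltb4r1 called lower. Under the same setting, those with Cxcr2 lost Hcar2 and had Ccrl2 called higher. With gates read after thinning, p38KO monocytes lost Ccrl2 and had Ltb4r1 called lower. No ratio of a called member reversed.

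In p38KO neutrophils with Cxcr2 the count of 2 became 0 under median-ratio scaling, gates read after thinning, a gate on S100a8 plus S100a9, a total without these genes, and cells with no Retnlg UMI, and 1 with no cell filter, with at least 1 Csf3r UMI, with no UMI of other gates' markers and without mast cell transcripts. Without cells with mast cell transcripts the lost call was that of Hcar2. Ltb4r1 in p38KO monocytes and Fpr1 in the p38KO Cxcr2 split were then newly called lower. In p38KO neutrophils without Cxcr2 the 1 call became 0 under median-ratio scaling, at 2500 UMIs, with at least 1 Csf3r UMI and in cells with a Retnlg UMI, and 2 with the S100a8 plus S100a9 gate and with no Retnlg UMI. In p38KO monocytes 2 became 1 with no cell filter and with both Ly6c2 and Fn1 required, and 0 without dendritic cell or cycling transcripts, which left 1 of 3 in macrophages. In p38i, 2500 UMIs gave 2 in neutrophils with Cxcr2, and requiring both Ly6c2 and Fn1 or 6 of their UMIs gave 3 and 2 in monocytes. The Cxcr2 split gave 7 at 2500 UMIs. A size limit of 1 left 1 call in p38KO macrophages, 2 in the Cxcr2 split and 0 in p38i neutrophils with or without Cxcr2, p38i monocytes and the other p38KO gates. For changes other than those of the size limit the cause was not tested.

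Each group is 1 pool of 3 mice, so the spread between mice is unknown and batch and condition cannot be told apart. The lymphocyte level limits what can be read for Ccrl2 and Fpr1 in macrophages, and depth limits Fpr1 outside neutrophils, where counts were 15 to 75 UMIs per library in monocytes and macrophages.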
